A study of Mus musculus with 12 samples.

Results

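RNA-seq counts of 8 genes of mast cells and basophils (*Cpa3*, *Ms4a2*, *Fcer1a*, *Mcpt8*, *Hdc*, *Cma1*, *Tpsb2*, and *Prss34*) were followed in hematopoietic stem and progenitor cells with or without knockdown of *Rad21*, a subunit of the cohesin ring. The 8 genes were chosen by symbol as products typical of the 2 cell types, with earlier results of these data known, and were found through their Ensembl identifiers among the 46078 genes of the counts table. The study had 4 groups of 3 libraries each, all from the bone marrow of C57BL/6 mice and all infected with a lentivirus that carried GFP and an shRNA against either luciferase (shLuci, the control) or *Rad21* (shRad21). In culture, LSK cells (Lineage-Sca-1+Kit+, the fraction that contains the stem cells) were grown for 3 days after isolation and infection and then sorted as GFP+CD48-Sca-1+. In vivo, infected LSK cells were transplanted, and GFP+ LSK cells were reisolated from the recipients, 3 months later by the labels and somewhat later by the methods of the study. The age of the mice, the number of animals or cultures behind a library, and the *Rad21* shRNA used, of several that the study made, are not given in the sources used here. The p-values therefore measure the spread between these libraries, which may be technical. Libraries held between 15235129 and 29846689 counts, and 3 counts, taken as the floor of detection, corresponded to between 0.101 and 0.197 CPM, the counts of a gene divided by the normalized library total and scaled to 1000000 reads.

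Mast cells and basophils are granulocytes that bind IgE through the high-affinity receptor FcεRI and, when the receptor is cross-linked, release histamine, proteases, and lipid mediators. Basophils mature in the bone marrow and circulate, whereas mast cells leave the marrow as progenitors and mature in tissues under the influence of stem cell factor, the ligand of Kit. In the granules of mast cells, *Cpa3* encodes carboxypeptidase A3, *Cma1* encodes a chymase, and *Tpsb2* encodes a tryptase. *Mcpt8* encodes a serine protease of basophil granules, and *Prss34* encodes a tryptase-like protease made by basophils and by some mast cells. *Hdc* encodes histidine decarboxylase, the enzyme that makes histamine. *Fcer1a* encodes the IgE-binding α chain of FcεRI, and *Ms4a2* encodes its signal-amplifying β chain.

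The genes lie on 6 chromosomes of GRCm38. *Cpa3* is at chr3:20215620-20242181, *Hdc* at chr2:126593667-126619299, *Fcer1a* at chr1:173221284-173227214, and *Ms4a2* at chr19:11615523-11623719. *Cma1* (chr14:55941451-55944675) and *Mcpt8* (chr14:56082166-56085273) share a chromosome, as do *Prss34* (chr17:25298394-25300165) and *Tpsb2* (chr17:25366305-25369098). All 8 are annotated as protein coding, and none shares exonic bases with another gene. Of the 51-base stretches in their transcripts, the length of a read, 5.19% in *Cma1*, 2.06% in *Ms4a2*, and 0.0941% in *Hdc* also occur in transcripts of other genes, so a small part of their counts could be assigned uncertainly. No such stretch was found for the other 5 genes.

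GATA factors and basic helix-loop-helix factors such as MITF are known regulators of mast cell and basophil genes. The 250 bases before the RefSeq start (GRCm38.p6) were found for 7 of the 8 genes and searched on both strands for 4 GATA words and 3 E-box words. Among all windows of this length, the GATA word AGATAA was held by 9.99%, AGATAG was held by 7.71%, TGATAA was held by 7.94%, and TGATAG was held by 6.35%. The E-box word CACGTG was held by 6.02%, CATGTG was held by 12.3%, and CAGCTG was held by 13%. The windows of *Cpa3*, *Cma1*, *Ms4a2*, and *Prss34* are shown 5′ to 3′ with the words in capitals. In vivo *Cpa3* and *Cma1* rose, *Ms4a2*, a receptor gene, had a negative value, and the groups of *Prss34* overlapped. On the opposite strand, the GATA words in these windows read as TTATCT in *Ms4a2* and as CTATCT in *Cma1*.

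Cpa3 upstream (chr3:20242182-20242431, minus strand): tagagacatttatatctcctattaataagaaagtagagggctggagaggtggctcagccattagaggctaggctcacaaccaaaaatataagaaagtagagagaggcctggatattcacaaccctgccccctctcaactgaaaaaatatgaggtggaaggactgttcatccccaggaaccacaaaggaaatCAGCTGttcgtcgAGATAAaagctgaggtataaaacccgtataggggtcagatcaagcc
Cma1 upstream (chr14:55944676-55944925, minus strand): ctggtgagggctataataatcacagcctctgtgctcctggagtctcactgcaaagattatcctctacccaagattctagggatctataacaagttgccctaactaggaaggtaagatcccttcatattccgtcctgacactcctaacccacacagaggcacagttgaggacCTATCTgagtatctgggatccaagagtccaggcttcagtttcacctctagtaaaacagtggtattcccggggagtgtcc
Ms4a2 upstream (chr19:11623720-11623969, minus strand): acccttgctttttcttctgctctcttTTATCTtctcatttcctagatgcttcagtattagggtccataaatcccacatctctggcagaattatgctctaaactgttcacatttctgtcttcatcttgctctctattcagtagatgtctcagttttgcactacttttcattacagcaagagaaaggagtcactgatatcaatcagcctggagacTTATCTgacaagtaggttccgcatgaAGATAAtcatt
Prss34 upstream (chr17:25298144-25298393, plus strand): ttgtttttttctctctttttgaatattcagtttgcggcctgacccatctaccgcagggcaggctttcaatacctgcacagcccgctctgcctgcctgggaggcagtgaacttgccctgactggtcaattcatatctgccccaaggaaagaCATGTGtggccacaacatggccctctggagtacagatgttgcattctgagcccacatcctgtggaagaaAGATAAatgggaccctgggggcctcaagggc

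The 6 windows with at least 1 GATA word, of 7 searched, were those of *Cpa3*, *Ms4a2*, *Fcer1a*, *Hdc*, *Cma1*, and *Prss34*, and 26.5% of the 32851 windows of all RefSeq starts held one. *Cpa3* had AGATAA 46 bases before the start (first base at -46) and the E-box CAGCTG at -59. *Ms4a2* had 3 copies of AGATAA, at -224, -37, and -11, whereas 6.40% of all windows had 2 or more GATA words. *Cma1* had AGATAG at -79. E-box words stood in the windows of 3 genes (*Cpa3*, *Fcer1a*, and *Prss34*), against 28.3% of all windows. No 2 words overlapped. The window of *Mcpt8* held neither kind of word. Matches of letters do not show that a factor binds, and their absence from a window says nothing about the factor. Members that rose and members that did not rise both had GATA words.

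*Rad21* was checked first. In culture it was at 383.6, 418.7, and 405.3 CPM in the shLuci libraries and at 153.8, 136.6, and 128.3 CPM in the shRad21 libraries. In vivo it was at 117.7, 123.9, and 124.7 CPM with shLuci and at 43.4, 47.7, and 43.6 CPM with shRad21. Each shRad21 library was below each shLuci library of its experiment, as labelled. The summed level of 11 genes of stem and progenitor cells, among them *Kit*, *Ly6a*, and *Cd34*, was between 2931 and 4797 CPM in all 12 libraries. It was not set against another cell population, so it does not test the LSK label. Of the mast cell genes, *Cpa3*, *Tpsb2*, and *Cma1* were detected, at up to 3846, 115, and 165 counts, while others typical of mature tissue mast cells were nearly absent. *Mcpt1* and *Mcpt9* had 0 counts in every library, *Mcpt2* at most 3, *Mrgprb2* at most 4, and *Mcpt4* at most 9. The summed level of the 8 genes was between 15.3 and 219.7 CPM. In bulk samples of this kind, fewer cells of a type and less RNA per cell cannot be told apart.

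**Figure D1:**
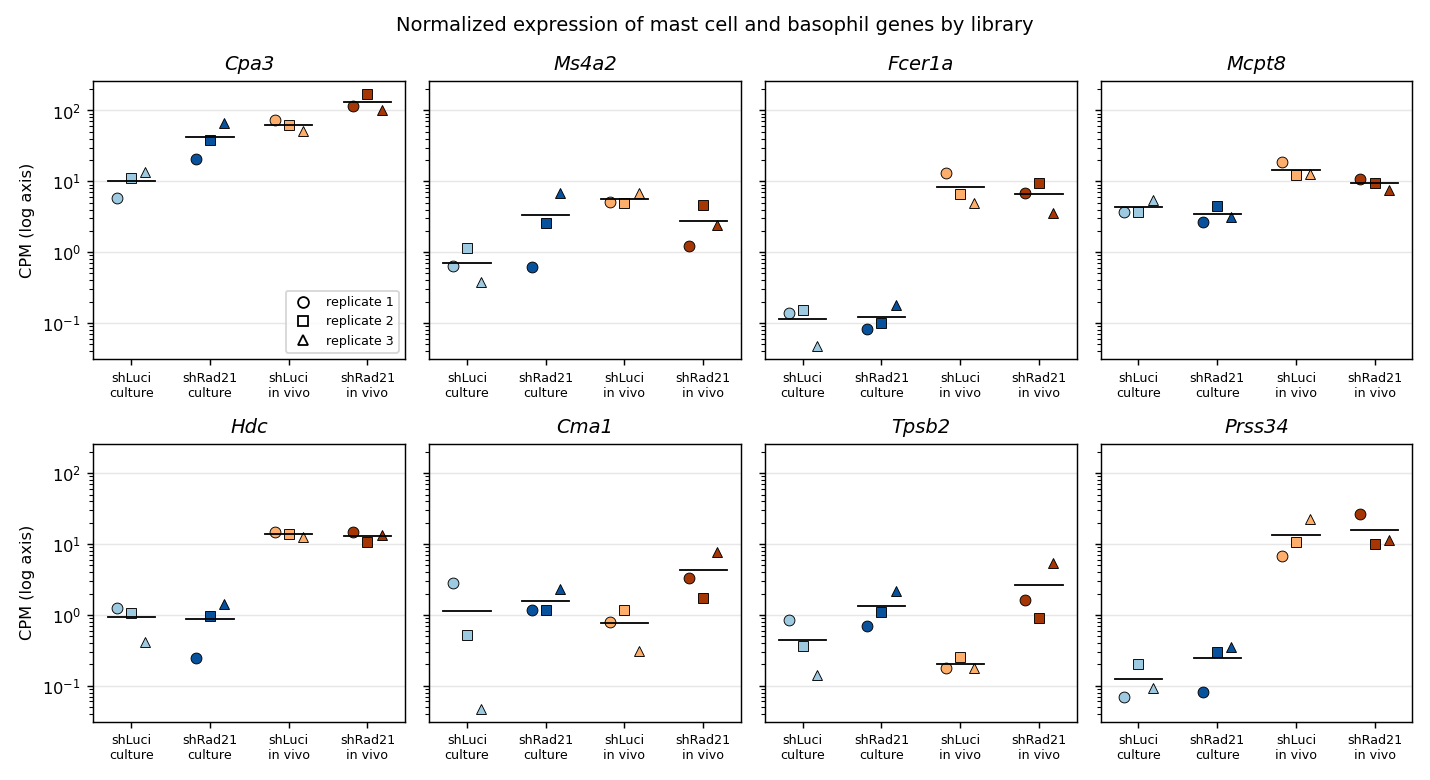
Normalized expression of the 8 mast cell and basophil genes in each library (CPM on a common log axis, scaled over all 12 libraries; points are libraries, with a symbol per replicate number, and lines are means of 3). The shRad21 libraries lie above shLuci libraries for *Cpa3* in both experiments and for *Cma1* and *Tpsb2* in vivo, and *Fcer1a* and *Prss34* are near the floor of 0.101 to 0.197 CPM in culture.

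In cultured cells, *Cpa3* was the member that rose with *Rad21* knockdown in the main fit, which did not pair the libraries. With the replicate number as a block, *Ms4a2* and *Tpsb2* passed as well. It was at 5.83, 11.3, and 13.5 CPM in the shLuci libraries and at 20.98, 37.9, and 67.4 CPM in the shRad21 libraries. The groups did not overlap, although the shRad21 libraries themselves spanned a wide range, with replicate 3 the highest. With 3 libraries against 3, the smallest exact permutation p is 0.1, and the share of all genes without overlap was not counted. The log2 fold change of *Cpa3* was 2.03 (SE 0.38, adjusted p = 0.00493 in the quasi-likelihood test of edgeR, Benjamini-Hochberg adjusted over all genes tested, n = 3 per group), which is 4.08-fold. Without shRad21 replicate 3 it was 1.52, and the adjusted p stayed between 0.000766 and 0.0308 as each library was left out. Of the 8 genes, 6 had enough counts to be tested, 1 was higher, and 0 were lower, whereas 14.2% of the 15543 genes tested were differentially expressed (DEGs), 6.18% higher and 8.06% lower. An unadjusted p under 0.05 was found for 3 of the 6. The median log2 fold change of the 6 was 1.20, against -0.0039 for all genes tested. *Tpsb2*, *Ms4a2*, and *Cma1* had enough counts to be tested with the shRad21 libraries but not with the shLuci libraries alone. The choice of the 6 thus depended in part on the group where these genes were high, and so did the count of 3 and the median.

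The mast cell tryptase *Tpsb2* and the receptor gene *Ms4a2* had positive values in culture that did not pass in the main fit. *Tpsb2* was at 0.842, 0.359, and 0.140 CPM with shLuci and at 0.701, 1.11, and 2.17 CPM with shRad21. *Ms4a2* was at 0.632, 1.13, and 0.374 CPM with shLuci and at 0.618, 2.58, and 6.76 CPM with shRad21. In both genes shRad21 replicate 1 fell among the control libraries, and shRad21 replicate 3 was the highest of the 6. The log2 fold change was 1.72 (SE 0.57, adjusted p = 0.0695) for *Tpsb2* and 2.25 (SE 0.72, adjusted p = 0.0638) for *Ms4a2* in edgeR. With the replicate number as a block, which pairs the cultured libraries by the correlation of same-numbered ones, both passed in edgeR, at an adjusted p of 0.0192 and 0.00199. Both also passed without shRad21 replicate 1, at 0.0339 for *Tpsb2* and 0.00416 for *Ms4a2*, and *Tpsb2* passed without shLuci replicate 1, at 0.0355. Without shRad21 replicate 3 the log2 fold changes were 1.13 and 1.14. Over all genes, the block raised the number passing in culture from 2213 to 3186 of 15543 tested.

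The chymase gene *Cma1* was spread widely among the cultured controls, at 2.81, 0.513, and 0.0467 CPM (40, 10, and 1 counts), and was at 1.15, 1.16, and 2.35 CPM with shRad21. Its shLuci libraries thus included the highest and the lowest of the 6, and the log2 fold change was 0.67 (SE 0.75, adjusted p = 0.636 in edgeR). Without shLuci replicate 1 it was 2.53, at an adjusted p of 0.0346. The basophil protease *Mcpt8* was at 3.72, 3.75, and 5.42 CPM with shLuci and at 2.64, 4.45, and 3.13 CPM with shRad21, with overlap between the groups and a log2 fold change of -0.35 (SE 0.24, adjusted p = 0.406). *Hdc* was at 1.26, 1.08, and 0.420 CPM and at 0.247, 0.960, and 1.42 CPM, respectively, and its log2 fold change was 0.0081 (SE 0.53, adjusted p = 0.996). *Fcer1a* had 2, 3, and 1 counts with shLuci and 2, 2, and 5 with shRad21, and *Prss34* had 1, 4, and 2 and 2, 6, and 10. At these counts neither gene was tested in culture, and a difference was not detectable at this depth. In shRad21 replicate 3, 6 of the 8 genes had their highest level among the cultured libraries, the exceptions being *Mcpt8* and *Cma1*.

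In the transplanted cells, *Cpa3*, *Tpsb2*, and *Cma1* rose with *Rad21* knockdown. Which cells held these transcripts was not tested. *Cpa3* was at 73.0, 61.9, and 51.8 CPM in the shLuci libraries and at 116.8, 172.8, and 102.4 CPM in the shRad21 libraries. *Tpsb2* was at 0.178, 0.252, and 0.177 CPM (4, 5, and 4 counts) with shLuci and at 1.60, 0.899, and 5.41 CPM (35, 20, and 115 counts) with shRad21. *Cma1* was at 0.801, 1.16, and 0.310 CPM with shLuci and at 3.34, 1.71, and 7.77 CPM with shRad21. For each of the 3 genes every shRad21 library was above every shLuci library, and the highest library was shRad21 replicate 2 for *Cpa3* and shRad21 replicate 3 for *Tpsb2* and *Cma1*. In vivo, too, the share of all genes without overlap was not counted, so the separation is a description. The log2 fold change was 1.09 for *Cpa3* (SE 0.19, adjusted p = 0.00576 in edgeR), which is 2.13-fold. It was 3.69 for *Tpsb2* (SE 0.72, adjusted p = 0.00984 in edgeR), against a control level close to the floor, and 2.51 for *Cma1* (SE 0.60, adjusted p = 0.0248 in edgeR). All 8 genes were tested, 3 were higher and 0 lower, and 5 had an unadjusted p under 0.05, while 11% of the 15938 genes tested were DEGs, 5.65% higher and 5.32% lower. The median log2 fold change of the 8 was 0.11, against -0.0019 for all genes tested. *Tpsb2* met the filter only through the shRad21 libraries, so it could be called only as higher. *Cma1*, at 18, 23, and 7 counts with shLuci, did not meet the filter through the shLuci libraries alone. Its call thus also depended on the group where it was high. The count of 3 and the median include both genes.

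The calls of *Cpa3* and *Tpsb2* held when each library was left out, with adjusted p between 0.00673 and 0.0241 and between 0.00447 and 0.0386 in edgeR. The fold change of *Tpsb2* moved most without shRad21 replicate 3, to 2.62 on the log2 scale. The call of *Cma1* was lost without shLuci replicate 1 (adjusted p = 0.0653), shLuci replicate 3 (0.0706), or shRad21 replicate 3 (0.116 in edgeR, with a log2 fold change of 1.76).

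None of *Mcpt8*, *Ms4a2*, *Hdc*, *Fcer1a*, and *Prss34* passed as higher in vivo. *Mcpt8* was at 18.9, 12.4, and 12.5 CPM with shLuci and at 10.8, 9.57, and 7.58 CPM with shRad21. *Ms4a2* was at 5.07, 4.94, and 6.86 CPM with shLuci and at 1.24, 4.63, and 2.45 CPM with shRad21. In both genes every shRad21 library was below every shLuci library, yet neither passed the test, with a log2 fold change of -0.63 for *Mcpt8* (SE 0.20, adjusted p = 0.0774 in edgeR) and -0.999 for *Ms4a2* (SE 0.40, adjusted p = 0.156 in edgeR). How many of all genes separate in this way was not counted. *Mcpt8* passed in DESeq2, at an adjusted p of 0.0338, and *Ms4a2* passed in edgeR without shRad21 replicate 2, at 0.0221 and a log2 fold change of -1.59. *Hdc* was nearly the same in the 6 libraries, at 14.8, 13.7, and 12.5 CPM with shLuci and at 14.97, 10.7, and 13.5 CPM with shRad21, and its log2 fold change was -0.05 (SE 0.15, adjusted p = 0.883). *Fcer1a* was at 13.3, 6.56, and 5.0 CPM and at 6.87, 9.48, and 3.53 CPM, respectively. *Prss34* was at 6.85, 10.8, and 22.4 CPM and at 26.2, 9.89, and 11.5 CPM. Both spread over several-fold within a group, the groups overlapped, and the log2 fold changes of -0.30 for *Fcer1a* (SE 0.40, adjusted p = 0.724) and 0.26 for *Prss34* (SE 0.44, adjusted p = 0.787) were smaller than their errors.

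**Figure D2:**
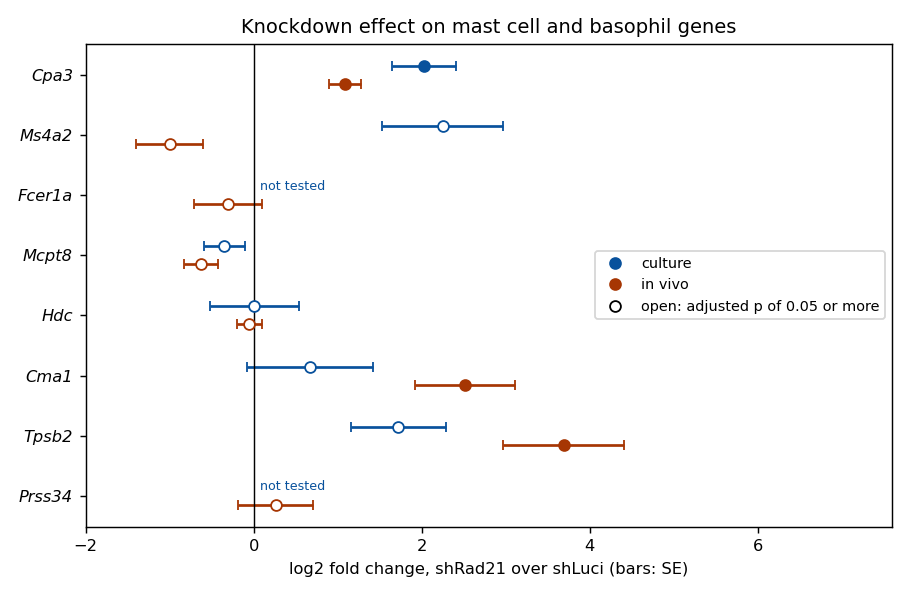
Knockdown effect on the 8 genes (log2 fold change of shRad21 over shLuci, bars are SE from edgeR, 3 libraries per group, culture in blue, in vivo in brown). Filled points passed an adjusted p of 0.05: *Cpa3* in culture (2.03), and *Cpa3* (1.09), *Cma1* (2.51), and *Tpsb2* (3.69) in vivo. The fits shown are without the replicate block, with which *Ms4a2* and *Tpsb2* also passed in culture.

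A ratio of 2 genes within a library does not depend on how libraries are scaled, and ratios were formed after the values had been seen, so they are a description. In vivo the shRad21 libraries were above the controls for *Cpa3*, *Tpsb2*, and *Cma1* and below them for *Mcpt8*, which already fixes that the ratios to *Mcpt8* do not overlap there. The ratio of *Cpa3* to *Mcpt8* (counts per kilobase of exon) was 1.03, 1.98, and 1.64 in the cultured shLuci libraries and 5.23, 5.61, and 14.2 in the shRad21 libraries. In vivo it was 2.55, 3.30, and 2.72 with shLuci and 7.08, 11.9, and 8.89 with shRad21. In culture, too, the groups did not overlap. The ratio of *Tpsb2* to *Mcpt8* in vivo was 0.00591, 0.0128, and 0.00885 with shLuci and 0.0925, 0.0588, and 0.447 with shRad21. In culture it was 0.142, 0.0600, and 0.0162 with shLuci and 0.166, 0.157, and 0.434 with shRad21, also without overlap. The ratio of *Cma1* to *Mcpt8* overlapped in culture, at 0.691, 0.125, and 0.00789 with shLuci and 0.401, 0.239, and 0.687 with shRad21, and a control library was the highest. In vivo it was 0.0389, 0.0859, and 0.0226 with shLuci and 0.282, 0.163, and 0.938 with shRad21. With *Gata2*, which rose itself in both experiments, as the denominator, the ratio for *Cpa3* was 0.0915, 0.160, and 0.170 with shLuci and 0.234, 0.329, and 0.523 with shRad21 in culture, without overlap. In vivo the same ratio was 0.928, 0.865, and 0.701 with shLuci and 0.931, 1.60, and 0.926 with shRad21, and the groups overlapped.

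**Figure D3:**
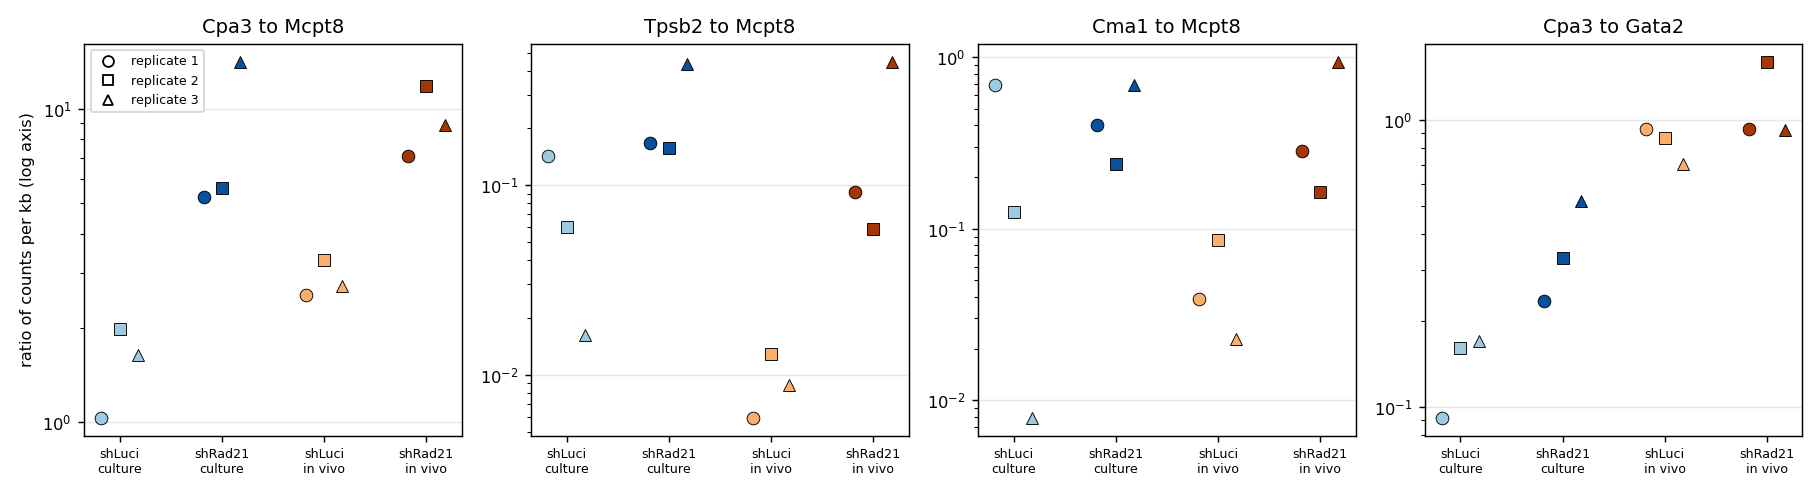
Ratios of *Cpa3*, *Tpsb2*, and *Cma1* to *Mcpt8* and of *Cpa3* to *Gata2* (panels from left to right) in each library, as counts per kilobase on log axes whose range differs by panel, with a symbol per replicate number. *Cpa3* to *Mcpt8* is at 5.23 to 14.2 with shRad21 against 1.03 to 1.98 with shLuci in culture and at 7.08 to 11.9 against 2.55 to 3.30 in vivo, whereas the groups overlap for *Cma1* to *Mcpt8* in culture and for *Cpa3* to *Gata2* in vivo.

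Whether knockdown acted differently in the 2 settings was tested as an interaction over all 12 libraries. No member passed in edgeR (0 of 8), 1 had an unadjusted p under 0.05, and 1 passed in DESeq2, while 4.67% of the 17050 genes tested passed, 1.64% with a larger value in culture and 3.03% with a smaller one. *Ms4a2* had the largest difference, with a log2 value of 3.25 for culture minus in vivo (SE 0.92, unadjusted p = 0.00317, adjusted p = 0.0594 in edgeR and 0.0478 in DESeq2). It passed without shRad21 replicate 1 of the cultured cells (adjusted p = 0.0114) or shRad21 replicate 2 of the transplanted cells (0.0364 in edgeR). For *Cpa3* the difference was 0.95 (SE 0.49, adjusted p = 0.339 in edgeR). With the replicate block both genes passed, *Cpa3* at 0.0242 and *Ms4a2* at 0.0462. The differences were -2.0 for *Tpsb2* (adjusted p = 0.369) and -1.90 for *Cma1* (0.436), and the adjusted p of the other 4 genes was at least 0.739 in edgeR. The calls of *Tpsb2* and *Cma1* in vivo but not in culture therefore do not show that their responses differed.

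The control cells were compared between culture and transplantation to see the baseline of these genes, and 6 of the 8 were lower in culture. Library kit (TruSeq in culture, SMART-Seq with Nextera in vivo), the CD48- sort of the cultured cells, and time differ together with the setting and cannot be told apart from it. Of the 17050 genes tested, 74.2% passed, 37.1% higher and 37.1% lower in culture, so a call in this comparison is common. *Hdc* fell from 13.7 ± 1.15 CPM in vivo to 0.921 ± 0.443 CPM in culture (mean ± SD, n = 3), a log2 difference of -3.94 (SE 0.40, adjusted p = 3.93e-07 in edgeR). *Ms4a2* fell by 2.98 (SE 0.70, adjusted p = 0.00133), *Cpa3* by 2.58 (SE 0.37, adjusted p = 1.55e-05), and *Mcpt8* by 1.75 (SE 0.24, adjusted p = 9.5e-06) on the log2 scale in edgeR. *Fcer1a*, at between 1 and 3 counts in the cultured controls against between 113 and 298 in vivo, and *Prss34*, at between 1 and 4 against between 154 and 507, also passed (adjusted p = 2.07e-07 and 4.87e-07 in edgeR). The size of their fitted change depends on the prior count and is not given. Both met the filter only through transplanted libraries, so each could be called only as lower in culture. *Cma1* (log2 difference 0.46, adjusted p = 0.649) and *Tpsb2* (1.03, adjusted p = 0.312), the chymase and tryptase of mast cells, did not pass. Without shLuci replicate 1 of the cultured cells the value of *Cma1* turned to -1.43. The median log2 difference of the 8 was -2.78, against -0.0062 for all genes, and scaling by library size alone moved the median of all genes by -0.17.

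Per kilobase of exon, which allows genes to be ranked against each other, *Cpa3* was first in all 4 groups. In the transplanted controls its level of 41.0 ± 7.01 CPM per kilobase (mean ± SD, n = 3) was followed by *Mcpt8* (14.6 ± 3.72), *Prss34* (10.9 ± 6.64), and *Fcer1a* (8.29 ± 4.4), and among these 3 genes neighbours in the order were within the larger SD of each other. *Hdc* (2.14 ± 0.18) and *Ms4a2* (2.0 ± 0.38) were likewise close. *Cma1* (0.695 ± 0.392) and *Tpsb2* (0.127 ± 0.027) were last. With shRad21 in vivo, *Cpa3* was at 86.1 ± 24.5 CPM per kilobase, *Cma1* at 3.92 ± 2.88, and *Tpsb2* at 1.66 ± 1.52, and *Ms4a2* (0.985 ± 0.611) was last, below *Tpsb2* by less than the larger SD. In the cultured controls *Cpa3* (6.73 ± 2.60) and *Mcpt8* (4.30 ± 0.97) led and were within the larger SD of each other. *Cma1* (1.03 ± 1.36), *Tpsb2* (0.281 ± 0.225), *Ms4a2* (0.253 ± 0.137), *Hdc* (0.144 ± 0.069), *Fcer1a* (0.114 ± 0.059), and *Prss34* (0.101 ± 0.059) followed, each within the larger SD of the next. In cultured shRad21 cells *Cpa3* was at 27.8 ± 15.5 CPM per kilobase, far above *Mcpt8* at 3.41 ± 0.94.

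Genes that act with the 8 were taken from 5 lists. Over all genes tested, 14.2% passed in culture and 11% in vivo, and the list counts were not tested against these shares. Among the transcription factors of the branch (10 genes, all tested), 3 were higher and 3 lower in culture, and 1 was higher and 3 lower in vivo. *Gata2*, which is needed for the mast cell and basophil lineages as well as for stem cells, rose in both, from 253.8 ± 28.4 to 396 ± 70.7 CPM in culture and from 265.9 ± 12.9 to 408.3 ± 33.6 CPM in vivo. Its log2 fold change was 0.65 in culture (adjusted p = 0.00674) and 0.63 in vivo (adjusted p = 0.000484), and the interaction was 0.02 (SE 0.14, adjusted p = 0.976 in edgeR). *Gata1*, a factor of the erythroid, megakaryocyte, mast cell, and eosinophil lineages, rose in culture from 3.15 ± 1.66 to 10.3 ± 4.34 CPM (log2 fold change 1.67, SE 0.38, adjusted p = 0.0143), a call that was lost without shLuci replicate 2 (0.0601 in edgeR). In vivo *Gata1* was at 31.5 ± 9.64 and 34.5 ± 13.3 CPM (log2 fold change 0.15, adjusted p = 0.818), and its interaction was 1.53 (adjusted p = 0.140, with the block 0.0048, in edgeR). The myeloid factors *Cebpa* (-0.98 and -0.99) and *Spi1* (-0.62 and -0.64), the latter encoding PU.1, fell in culture and in vivo, respectively, in log2 fold change. *Cebpb* fell in culture (-1.45, adjusted p = 0.00185), *Runx1* rose in culture (0.71, adjusted p = 0.00315), and *Ikzf1* fell in vivo (-0.34, adjusted p = 0.0348 in edgeR), a call kept without shLuci replicate 3 or shRad21 replicate 2 and lost without each other library, with adjusted p up to 0.125. Of the exonic bases of *Cebpb*, 20.7% overlap another gene. *Mitf*, the master factor of mast cells and melanocytes, did not pass in either experiment.

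**Figure D4:**
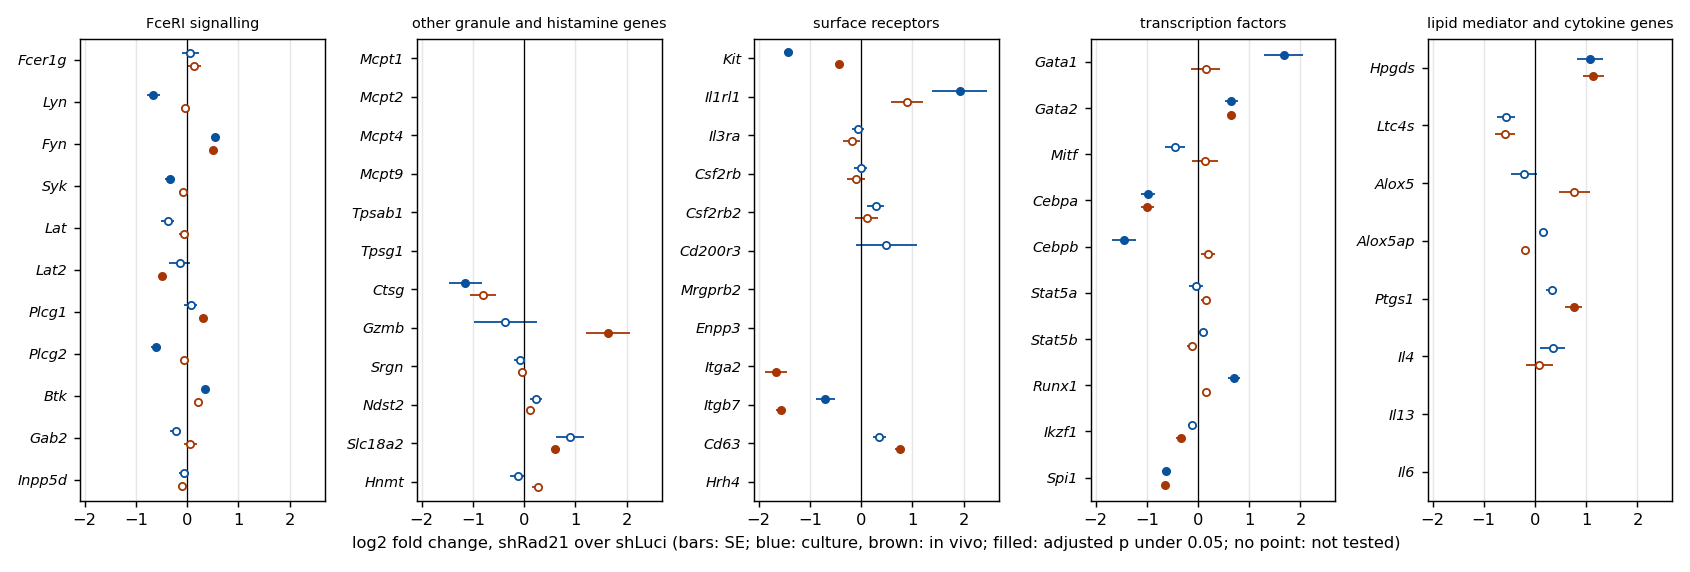
Log2 fold change (shRad21 over shLuci, bars are SE from edgeR, 3 libraries per group) of the genes of 5 lists, in culture in blue and in vivo in brown. Filled points passed an adjusted p of 0.05, and genes without a point were not tested. *Gata2* (0.65 and 0.63) and *Hpgds* (1.07 and 1.14) were higher and *Kit* (-1.42 and -0.42) was lower in both experiments.

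Among the surface receptors (12 genes, 8 tested in each experiment), 1 was higher and 2 lower in culture, and 1 was higher and 3 lower in vivo. *Kit*, the receptor for stem cell factor on which mast cells depend and a marker of the LSK sort, fell in both. In culture *Kit* was at 741.5 ± 77.8 CPM with shLuci and 275.9 ± 14.7 CPM with shRad21 (log2 fold change -1.42, SE 0.09, adjusted p = 1.53e-05). In vivo it was at 911.5 ± 62.3 and 672.3 ± 47.8 CPM (log2 fold change -0.42, SE 0.08, adjusted p = 0.00659 in edgeR). *Kit* and *Cpa3* thus moved in opposite directions in both experiments. *Il1rl1*, the IL-33 receptor of mast cells and basophils, was higher in culture (log2 fold change 1.93, adjusted p = 0.0362), but the call was lost without shRad21 replicate 3 (0.0957, log2 fold change 0.90) or without any 1 of the 3 shLuci libraries (0.0600 to 0.124 in edgeR), and it missed the threshold in DESeq2 (0.0561). *Itgb7*, an integrin that mast cell progenitors use to enter the gut, was lower in vivo (-1.57, adjusted p = 4.38e-05) and in culture (-0.70, adjusted p = 0.0285), where the call was kept without shLuci replicate 1 or shRad21 replicate 3 and lost without each other library (up to 0.118 in edgeR). *Itga2* was lower in vivo (-1.66) and *Cd63*, a protein of granule membranes, was higher in vivo (0.75). With the block, the calls in culture were 3 higher and 2 lower.

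Among the other granule and histamine genes, 6 of 12 could be tested, and the 6 not tested were the proteases *Mcpt1*, *Mcpt2*, *Mcpt4*, *Mcpt9*, *Tpsab1*, and *Tpsg1*. In culture 0 were higher and 1 was lower, and in vivo 2 were higher and 0 lower. *Slc18a2*, the transporter that loads histamine and other amines into vesicles, rose in vivo from 204.6 ± 24.2 to 308.1 ± 24.4 CPM (log2 fold change 0.61, adjusted p = 0.00262), and in culture it was at 181.3 ± 72.7 and 335.8 ± 114.5 CPM, with an adjusted p of 0.0555 and, with the replicate block, of 1.8e-07 in edgeR. *Gzmb*, a granzyme, was higher in vivo (1.64, adjusted p = 0.0371), a call that was kept without shLuci replicate 1 and lost without each other library (up to 0.116 in edgeR). *Ctsg*, cathepsin G of neutrophils and some mast cells, was lower in culture (-1.15, adjusted p = 0.0352), which was kept without shLuci replicate 3 or shRad21 replicate 2 and lost without each other library (up to 0.175 in edgeR). With the block, the calls in culture were 1 higher and 2 lower.

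FcεRI signaling (11 genes, all tested) had 2 higher and 3 lower in culture and 2 higher and 1 lower in vivo. *Fcer1g*, the γ chain that FcεRI shares with other Fc receptors, was at 53.9 ± 5.43 and 56.0 ± 15.1 CPM in culture and at 47.2 ± 6.36 and 51.6 ± 7.99 CPM in vivo, and did not pass (adjusted p = 0.861 and 0.564 in edgeR). The kinase gene *Fyn* rose in culture (0.55) and in vivo (0.51). The kinase gene *Btk* was higher in culture (0.35), the kinase gene *Lyn* (-0.66) and the phospholipase gene *Plcg2* (-0.61) were lower there, and *Syk* was lower by -0.33 (adjusted p = 0.0471 in edgeR), a call kept without shLuci replicate 1 and lost without each other library (up to 0.162). In vivo *Plcg1* was higher (0.31, adjusted p = 0.0302 in edgeR, kept without shRad21 replicate 1 and lost without each other library, up to 0.0971) and the adaptor gene *Lat2* was lower (-0.49). Of exonic bases, 36.3% in *Lat2*, 6.68% in *Plcg1*, and 6.09% in *Lyn* overlap other genes. With the block, the calls in culture were 2 higher and 4 lower, with the adaptor gene *Lat* added (adjusted p = 0.0765 without the block and 0.00609 with it, in edgeR).

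The lipid mediator and cytokine genes (8 genes, 6 tested in each experiment) had 1 higher in culture and 2 higher in vivo, with 0 lower in both. *Hpgds*, the hematopoietic prostaglandin D synthase of mast cells and of megakaryocytes, rose from 22.1 ± 9.18 to 46.5 ± 11.9 CPM in culture (log2 fold change 1.07, adjusted p = 0.0166) and from 9.74 ± 2.97 to 21.3 ± 3.61 CPM in vivo (1.14, adjusted p = 0.00784 in edgeR). In culture the call was lost without shLuci replicate 1, shLuci replicate 2, or shRad21 replicate 3 (up to 0.0906). *Ptgs1*, a cyclooxygenase, was higher in vivo (0.76, adjusted p = 0.0177), which was lost without shLuci replicate 2, shRad21 replicate 1, or shRad21 replicate 3 (up to 0.0778 in edgeR). With the block, the calls in culture were 2 higher and 1 lower.

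Between the control cells, each list but the last held calls in both directions. Of all 17050 genes tested, 74.2% passed here, 37.1% higher and 37.1% lower in culture, so the counts below are not a result about the lists. In culture against in vivo, 6 of 11 FcεRI signaling genes were higher and 1 lower, 1 of 6 other granule and histamine genes was higher and 4 were lower, and 4 of 9 receptors were higher and 3 lower. Of the 10 transcription factors, 4 were higher and 4 lower, and of 7 lipid mediator and cytokine genes, 3 were higher and 0 lower. *Gzmb* (log2 difference 5.46), the cytokine receptor gene *Csf2rb2* (3.88), and *Alox5* (2.88), a lipoxygenase gene of leukotriene synthesis, were higher in cultured controls, whereas *Ctsg* (-3.79), *Itga2* (-3.31), and *Gata1* (-3.27) were lower. *Gata2* (-0.07, adjusted p = 0.617) and *Fcer1g* (0.19, adjusted p = 0.310 in edgeR) did not pass, and *Kit* was lower (-0.30, adjusted p = 0.00528 in edgeR).

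Some markers of other lineages moved with the knockdown as well, while 14.2% of all genes tested passed in culture and 11% in vivo. The counts of each list were not tested against these shares. Megakaryocyte markers (5 genes) summed to between 629.9 and 743.5 CPM in cultured shLuci libraries and between 697.2 and 1022 CPM in shRad21 libraries, with 3 higher and 1 lower of 4 tested. In vivo they summed to between 252.7 and 315.5 CPM and between 584.4 and 727.2 CPM, with 4 of 5 higher. Neutrophil markers (8 genes) summed to between 69.4 and 86.0 CPM against 32.2 to 37.8 CPM in culture, with 2 of 3 tested lower. In vivo they summed to between 1633 and 2032 CPM against 1162 to 1314 CPM, with 2 of 8 tested lower. *Mpo* led the in vivo sums, with means of 1262 and 792.3 CPM. Eosinophil markers (5 genes), whose summed levels were between 4.49 and 12.4 CPM against 1.32 to 2.99 CPM in culture and between 26.9 and 44.1 CPM against 10.8 to 16.2 CPM in vivo, had 1 of 1 and 2 of 4 tested lower. *Prg2*, *Epx*, and *Ccr3* had at most 3 counts in cultured cells of both groups. The monocyte and macrophage list (6 genes) had 3 lower and 1 higher of 5 tested in culture and 4 of 5 lower in vivo, although its sum, led by a few abundant genes, overlapped in both. Lymphoid markers (8 genes) had 6 of 7 lower in vivo, with sums of 452.5 to 724.8 CPM against 86.2 to 157.8 CPM. *Dntt* led these lymphoid sums, with means of 534.6 and 107 CPM. Erythroid markers (6 genes) had 2 of 6 lower in vivo, with sums of 94.5 to 151.8 CPM against 59.5 to 81.9 CPM. In culture 0 of 3 tested lymphoid and 0 of 2 tested erythroid markers passed in edgeR, with 1 unadjusted p under 0.05 in each list. Of the 11 stem and progenitor genes, 5 were higher and 2 lower in culture, and 5 were higher and 3 lower in vivo. The sums of the 8 mast cell and basophil genes were between 15.3 and 20.04 CPM against 26.5 to 83.8 CPM in culture and between 111.6 and 132.9 CPM against 154.1 to 219.7 CPM in vivo. These sums were led by *Cpa3*, with means of 10.2 and 42.1 CPM in culture and 62.2 and 130.7 CPM in vivo. They do not show a rise of the 8 genes as a set. The part of the other lineages in the values of the 8 genes was not tested.

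The genes whose 4 group means were most like those of *Cpa3* were looked for among 14524 genes tested in all fits, by the root mean square difference of centred log2 CPM over the 4 groups. They were *Rgmb* (0.10), *Gp5* (0.14), *Sec16b* (0.17), *St8sia2* (0.19), and *Sox6* (0.21). *Gp5* encodes glycoprotein V of platelets, and *Sox6* encodes a transcription factor with roles in red cell development. For *Mcpt8*, they were *Prr5* (0.033), *Slc9a7* (0.039), *Nrm* (0.058), *Gm15728* (0.084), and *Tnfrsf18* (0.090). The means of *Cpa3* and of these 5 genes increased in the order cultured shLuci, cultured shRad21, transplanted shLuci, and transplanted shRad21, whereas *Mcpt8* and its neighbours had their highest mean in transplanted shLuci and their lowest in cultured shRad21. With 4 groups, likeness of this kind is a description of means only.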

How the data were processed

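RNA-seq counts of 12 libraries in 4 groups of 3 were used, with groups and replicate numbers taken from the labels. Per the methods of the study, the authors depleted rRNA reads, trimmed the reads, mapped them to GRCm38, and counted them on genes. The submitters' processing notes name TopHat2 2.0.11 and HTSeq 0.6.1. The deposited values are raw counts, whole numbers without normalization, and the strand setting and annotation release are not given in the sources used here. Genes were matched by Ensembl identifier to GENCODE M21 (45143 of 46078, with 0.161% of all counts on the others).

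Counts were normalized by TMM and tested with edgeR 4.0.16 in R 4.3.3 (filterByExpr at its defaults, a minimum count of 10 and a total of 15, quasi-likelihood test, two-sided, Benjamini-Hochberg adjustment over all genes tested, threshold 0.05). Culture and in vivo were fitted separately, and the control comparison and the interaction used all 12 libraries. Levels are CPM on 1 TMM scale over the 12 libraries. SE was derived from the F statistic. Log2 CPM used a prior count of 2. DESeq2 1.42.0 (the tool of the study), 2 other scalings, 2 other filters, the replicate block, 1 model of 12 libraries, and omission of each library were alternatives. Nothing describes what a replicate number stands for. Same-numbered libraries correlated in their deviations from the group means at 0.17 to 0.217 in culture, where each pair was above 0.1 and the numbers were taken to pair the libraries, and at 0.0341 to 0.0575 in vivo, where they were not.

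The 8 genes and all lists were chosen with earlier results of these data known. Named were the 8 genes, *Rad21*, *Fcer1g*, *Gata1*, *Gata2*, and *Kit*, and, of each list, up to 4 called genes per direction with the largest change. For the 2 members with the highest mean log2 CPM, the 5 genes of nearest pattern were named. Genes of the marker lists that are named, and list members named as not called or not detected, were chosen after their values had been seen. The steps were tested on simulated data, whose spread between libraries was set smaller than that of several of the 8 genes. That test therefore does not cover genes as variable as these. Promoter windows are from RefSeq. Python 3.11.15 was used for the tables, with pandas 2.3.3 and NumPy 2.4.6, and matplotlib 3.10.9 for the figures. The floor of 3 counts covers counting error only, whereas SE and SD include the spread between libraries.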

Additional observations from a re-analysis of the deposited data

Results flagged for a closer look

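For 5 list genes, the knockdown effect differed between culture and the transplanted cells in the edgeR interaction test. The log2 difference, culture minus in vivo, was -0.99 for *Kit* (SE 0.12, adjusted p = 0.000367), whose fall was larger in culture. It was -1.63 for *Cebpb* (SE 0.29, adjusted p = 0.00446), which was at 23.1 ± 3.48 and 26.1 ± 3.17 CPM in vivo with shLuci and shRad21. For *Plcg2* it was -0.55 (SE 0.12, adjusted p = 0.0190 in edgeR), and the call was lost without shRad21 replicate 1 of the cultured cells (0.0575). *Lyn* (-0.60, SE 0.16, adjusted p = 0.0480) and *Itgb7* (0.87, SE 0.24, adjusted p = 0.0494) were close to the threshold. *Lyn* kept the call only without shLuci replicate 3 of the cultured cells, and *Itgb7* only without that library, shRad21 replicate 1 of the cultured cells, or shLuci replicate 2 of the transplanted cells, of the 12 fits that left out a library, with adjusted p up to 0.122 and 0.142 in edgeR. With the replicate block, 8 list genes passed, these 5 and *Gzmb* (log2 difference -2.21, adjusted p = 0.0108, without the block 0.357), *Gata1* (1.63, 0.0048, without the block 0.140), and *Runx1* (0.56, 0.0129, without the block 0.0593 in edgeR). Without the block, none of the 8 mast cell and basophil genes passed this test in edgeR. Of all 17050 genes tested, 796 passed without the block and 991 with it.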

How the results depend on the processing

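Of the 8 genes, 1 passed in culture, but 3 did with no filter and with the replicate block, and 1 to 3 as each library was left out. In vivo 3 passed, 5 with no filter, 1 with at least 10 counts in every library (where 6 were tested, *Cma1* and *Tpsb2* not), and 2 to 4 as each library was left out. For the control cells 6 passed, 2 of 2 tested with at least 10 counts in every library, and 6 in each fit without a library. For the interaction 0 passed, 1 in DESeq2, 3 with no filter, 2 with the replicate block, and 0 to 1 without a library. With no filter the adjusted p of *Cpa3* in culture was 4.9e-54 in edgeR, against 0.00493, at log2 fold changes of 2.05 and 2.03. The counts with no filter are therefore not on the same footing as the others. In vivo, where the numbers did not pair the libraries, the block moved *Mcpt8* to an adjusted p of 0.0349 and *Cma1* to 0.0626, and 1 model of 12 libraries moved *Cma1* to 0.0565. The block changed no other call of the 8 genes in vivo or for the control cells. Some values near 0 changed sign. *Hdc* in culture was -0.033 in DESeq2 and between -0.60 and 0.46 without a library, *Hdc* in vivo was between -0.154 and 0.0705, *Fcer1a* in vivo between -0.66 and 0.21, and *Prss34* in vivo between -0.30 and 0.86 on the log2 scale. *Cma1* in control cells was between -1.43 and 1.10, and the interactions of *Fcer1a* and *Hdc* were between -0.029 and 0.84 and between -0.55 and 0.52. Over all genes, the DEGs in culture numbered 2213, with the block 3186, and with no filter 2988. In vivo they numbered 1749, with the block 1678, and with no filter 2829. The interaction had 796 genes, 1256 in DESeq2, 991 with the block, and 1409 with no filter. Without a library, the DEGs numbered 1352 to 2817 of 2213 in culture, 951 to 1562 in vivo, and 492 to 845 for the interaction. The cause of these changes was not tested. *Fcer1a* and *Prss34* in culture and *Tpsb2* in transplanted controls are limited by depth. In DESeq2, *Mcpt8* in vivo also passed. Upper-quartile scaling and library size alone changed no call or sign of the 8 genes.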
